A study of Mus musculus with 11 samples.

Results

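The 10 genes described here encode the proteins through which secretagogues raise cytosolic calcium and through which calcium is released, pumped back and let in again. They are the receptor genes Cckar, Chrm1 and Chrm3, the inositol trisphosphate (IP3) receptor genes Itpr1, Itpr2 and Itpr3, the pump gene Atp2a2, the store-operated entry genes Orai1 and Stim1, and the mechanosensitive channel gene Piezo1. They were chosen by gene symbol, and all 10 were among the 54532 genes listed for the pancreas and the 46078 listed for adipose tissue. RNA sequencing counts covered 5 pancreas libraries (2 control, 3 OA-AP) and 6 libraries of epididymal adipose tissue (3 control, 3 OA-AP), all from male wild-type C57BL/6 mice (C57BL/6J in the study's methods) aged 16 weeks. Control mice received a chow diet with 10 kcal% fat for 12 weeks and then 2 intraperitoneal injections of saline. OA-AP, the obesity-related alcohol-induced model of acute pancreatitis (AP), was a diet with 60 kcal% fat for 12 weeks followed by 2 intraperitoneal injections of ethanol at 2 g/kg, given 1 h apart. Tissue was taken 12 h after the first injection. Diet, ethanol and pancreatitis differed together between the groups, so their parts in any difference cannot be told apart.

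In the pancreatic acinar cell, cholecystokinin acts through the CCK1 receptor and acetylcholine through muscarinic receptors, and both activate phospholipase C through Gq. The IP3 formed opens IP3 receptors of the endoplasmic reticulum, SERCA pumps refill this store, and an emptied store is sensed by STIM proteins, which open ORAI channels of the plasma membrane. Brief calcium spikes drive enzyme secretion, whereas a sustained calcium rise is a known early event of AP, and PIEZO1 is a pressure-gated channel that can also admit calcium into acinar cells.

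The pancreas libraries held 14188832 to 17238919 counts on genes and the adipose libraries 20825177 to 27928097. A list of acinar genes, digestive enzymes for the most part, made up 81.4% and 82.8% of control pancreas counts and 65.5%, 68.0% and 67.1% of OA-AP pancreas counts, and the adipocyte markers Adipoq and Plin1 stood at or near 0 there. In adipose tissue the adipocyte list took 3.16% to 3.60% of the counts and Ins2, the insulin gene, was at or near 0. The adipose library of control replicate 2 stood apart, because the acinar list took 1.12% of its counts against 0.00143% to 0.00255% in the other 5, and values that rest on it are given with and without it. Normalized expression is in CPM, that is counts relative to library totals adjusted by edgeR's TMM factors, computed for each tissue alone. Where library totals alone were used for scaling, the median change over the tested pancreas genes moved, in log2, from 0.04 to 0.75, so the pancreas values below are changes relative to the TMM centre.

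Of the 10 genes, 3 rose in the OA-AP pancreas and none fell under edgeR's quasi-likelihood test with Benjamini-Hochberg adjustment (adjusted p under 0.05 and fold change of at least 1.5), where 29.8% of the 12884 genes tested were called, 16.2% as higher and 13.5% as lower. The 3 were Orai1, Stim1 and Piezo1, which encode the pore of the store-operated channel, its calcium sensor and the mechanosensitive channel. In adipose tissue 8 of the 10 passed the filter on low counts, and 2 of them (Stim1 and Atp2a2) rose and 1 (Chrm3) fell, where 25.1% of 15839 genes were called, 12.1% as higher and 13.0% as lower. The number called was at the background in the pancreas and 1 gene above it in adipose tissue, so it does not set the 10 genes apart. The median log2 fold change of the genes tested was 0.15 in the pancreas and 0.08 in adipose tissue, against 0.04 and -0.01 over all genes.

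**Figure D1:**
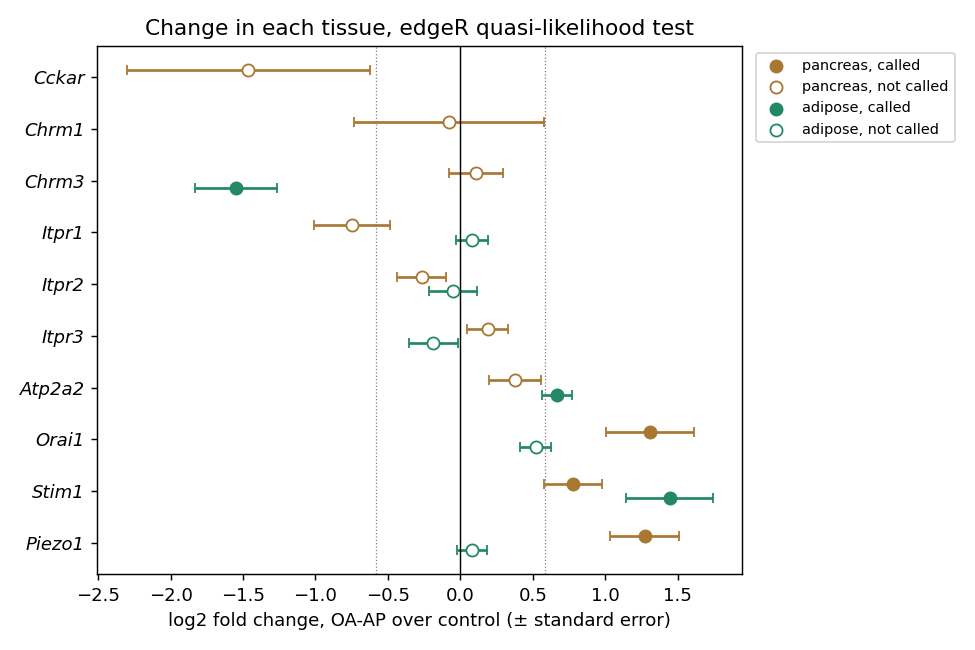
Log2 fold change of each gene, OA-AP over control, with standard errors, in pancreas (brown) and adipose tissue (green). Filled points passed the test and dotted lines mark a fold change of 1.5. Orai1, Stim1 and Piezo1 passed in the pancreas, Stim1, Atp2a2 and Chrm3 in adipose tissue, and Cckar and Chrm1 were not tested in adipose tissue.

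The bases before the start of Stim1, Orai1 and Piezo1 are shown because these are the genes that rose together in the pancreas. They were copied from RefSeq (GRCm38.p6), run 5′ to 3′ on the strand of the gene, and for Stim1 stop before the first base of the gene as deposited. Capitals mark each GC box, GGGCGG or CCGCCC on the strand shown.
Stim1, chr7:102267569-102267805, plus strand: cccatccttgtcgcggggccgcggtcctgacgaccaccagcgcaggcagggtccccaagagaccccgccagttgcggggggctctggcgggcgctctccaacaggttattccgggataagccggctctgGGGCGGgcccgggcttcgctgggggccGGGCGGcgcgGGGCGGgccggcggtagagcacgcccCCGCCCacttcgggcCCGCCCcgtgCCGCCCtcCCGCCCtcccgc
Orai1, chr5:123014824-123015073, plus strand: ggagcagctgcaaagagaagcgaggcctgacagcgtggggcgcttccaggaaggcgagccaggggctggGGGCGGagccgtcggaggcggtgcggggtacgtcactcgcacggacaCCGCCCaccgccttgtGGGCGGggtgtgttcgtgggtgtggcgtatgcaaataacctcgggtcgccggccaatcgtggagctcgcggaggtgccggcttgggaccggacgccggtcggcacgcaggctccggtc
Piezo1, chr8:122551330-122551579, minus strand: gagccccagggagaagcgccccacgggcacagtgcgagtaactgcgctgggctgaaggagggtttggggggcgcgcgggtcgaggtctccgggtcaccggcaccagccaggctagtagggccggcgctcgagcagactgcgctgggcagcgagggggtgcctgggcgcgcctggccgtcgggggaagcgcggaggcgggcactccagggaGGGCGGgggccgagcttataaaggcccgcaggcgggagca
The letters of a GC box occurred 7 times in the 237 bases of Stim1, 3 times in the 250 bases of Orai1 and 1 time in the 250 bases of Piezo1. At least 1 GC box was present in the 250 bases before the start of 32.7% of the 32851 promoters of the table. The table held 6 of the 10 genes. Of the others held, Itpr2 had 4 GC boxes in its 250 bases, Itpr3 had 1 and Chrm3 had 0, and Itpr2 also had 2 CCAAT matches. None of these genes was called higher in the pancreas with TMM scaling, so a GC box was not particular to the genes that rose. With both strands searched, the TATA box TATAAA was found before Piezo1 and in 12.4% of all promoters, CCAAT before Orai1 and in 33.8%, and the E-box CAGCTG before Orai1 and in 13.0% and none of these matches overlapped a GC box. The cyclic AMP response element TGACGTCA, present in 1.55% of promoters, was in none of the 3 windows. A match describes letters and is not a measured binding site.

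Cckar encodes the CCK1 receptor and lies on chromosome 5 of GRCm38 (53697776 to 53707705, minus strand). In the pancreas it had 365 and 382 CPM in the controls and 167, 212 and 27.4 CPM in OA-AP replicates 1 to 3. The groups did not overlap, and OA-AP replicate 3 was far below the other two. The log2 fold change was -1.46 (standard error 0.84), which did not pass the test (adjusted p = 0.248 by edgeR's quasi-likelihood test). Without OA-AP replicate 3 it was -1.03 and passed, with an adjusted p of 1.38e-05 by the same test. In proportion to the acinar list, Cckar had 35.5 and 32.2 counts per 100000 acinar counts in the controls, 33.6 and 38.4 in OA-AP replicates 1 and 2, and 4.52 in replicate 3. Relative to acinar transcripts, OA-AP replicates 1 and 2 thus lay within or above the control values, and replicate 3 alone was low. Its acinar share, 67.1%, was like that of the other OA-AP libraries, while its neutrophil list took 0.0118% of the counts against 0.000571% and 0.00188% in replicates 1 and 2, and its ductal list 0.142% against 0.0980% and 0.0696%. Whether these lists have a part in the low Cckar value was not tested. In bulk tissue, fewer cells of a type and less RNA per cell cannot be told apart.

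In adipose tissue, Cckar had 130 counts (5.51 CPM) in control replicate 2 and 0 counts in the other 5 libraries, where 3 counts would be 0.107 to 0.144 CPM before TMM scaling. The exception is the library with 1.12% acinar counts, in which Cckar had 51.3 counts per 100000 acinar counts, above the pancreas range of 4.52 to 38.4. Cckar did not pass the filter on low counts in adipose tissue, and no fold change is given for it there. The genes most like Cckar over the 11 libraries among 12299 genes were the chymotrypsin C gene Ctrc (Pearson r of log2 CPM 0.9967), 1810018F18Rik (0.9962) and 1810053B23Rik (0.9948). The points share the difference between the tissues, and correlations within a tissue were not computed.

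**Figure D2:**
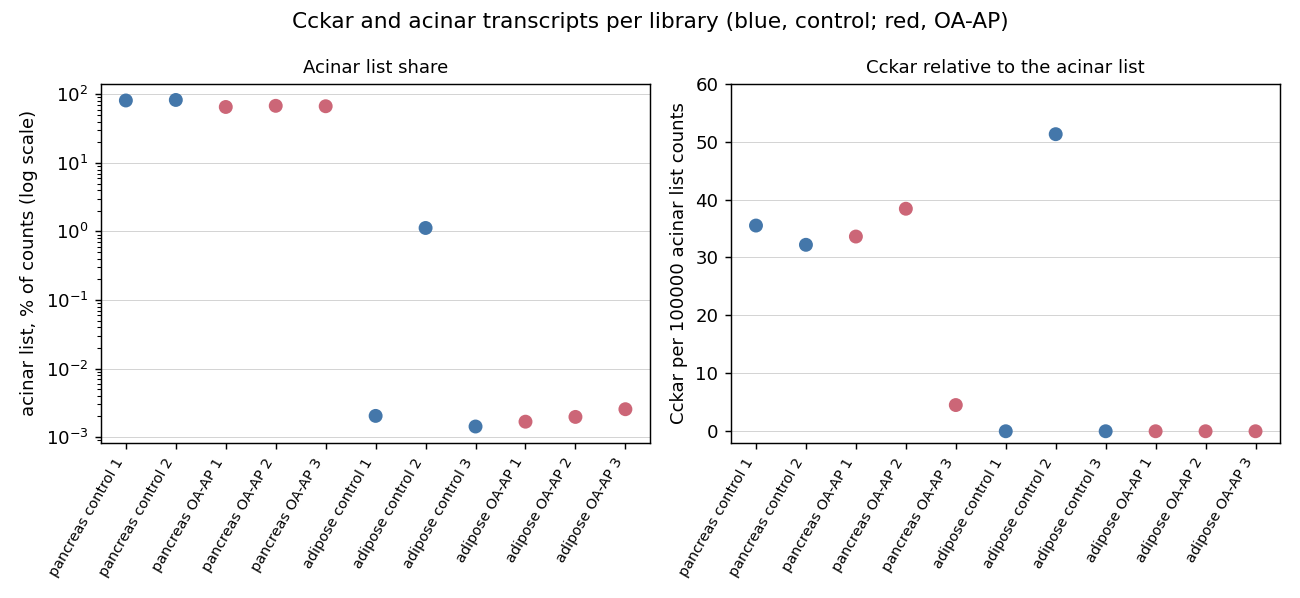
Share of counts on the acinar list (left, % on a log scale) and Cckar counts per 100000 acinar list counts (right) in each of the 11 libraries, controls in blue and OA-AP in red. Pancreas OA-AP replicate 3 sits at 4.52 on the right against 32.2 to 38.4 in the other pancreas libraries, and among adipose libraries control replicate 2 alone has acinar counts above 0.00255% and Cckar counts above 0.

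Chrm3, the M3 muscarinic receptor gene (chromosome 13, 9875486 to 10360847, minus strand), is the main muscarinic receptor of acinar secretion. In the pancreas its levels were 9.70 and 8.97 CPM in the controls and 10.9, 10.8 and 8.58 CPM in OA-AP, and the groups overlapped. Its log2 fold change was 0.11 (interval of 2 standard errors, -0.26 to 0.48) and did not pass (adjusted p = 0.678, edgeR), whereas with library totals alone it was called higher (0.83, adjusted p = 0.0167). In adipose tissue Chrm3 fell from 1.70, 1.36 and 1.80 CPM to 0.622, 0.625 and 0.404 CPM, with no overlap. The log2 fold change was -1.55 (standard error 0.28, adjusted p = 0.00616 by edgeR's quasi-likelihood test) and rested on 32 to 53 counts per control library and 8 to 13 per OA-AP library. Among adipose cell type lists, fibroblast and mesothelial markers moved with it, with 5 of 8 lower and summed levels of 3420 to 4581 CPM in controls and 2064 to 2477 CPM in OA-AP. Lymphocyte markers also had 5 of 8 lower, and took 0.00115% to 0.00448% of the counts in controls and 0.000303% to 0.000622% in OA-AP. Neutrophil markers moved the other way, with 6 of the 7 tested higher and sums of 17.4 to 36.1 CPM against 187 to 210 CPM. Smooth muscle and pericyte markers had 1 of 8 lower, with sums of 728 to 766 CPM against 395 to 856 CPM. Their part in the fall of Chrm3 was not tested.

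Chrm1, the M1 muscarinic receptor gene (chromosome 19, 8663789 to 8683587), was low. It had 2.06 and 1.40 CPM in the control pancreas and 1.52, 2.92 and 0.523 CPM in the OA-AP pancreas, from 10 to 51 counts per library, and the groups overlapped. Its log2 fold change of -0.08 had an interval of -1.39 to 1.24 (2 standard errors), so only large changes could have been seen at this depth. In adipose tissue it had 4, 1 and 5 counts in the controls and 1 count in each OA-AP library, too few to be tested. Within the muscarinic family, Chrm3 took 78.3% and 85.3% of the length-scaled counts in the control pancreas and 76.3% to 89.6% in OA-AP, and Chrm4 and Chrm5 had 0 counts in all 5 pancreas libraries. Cckbr, the gene of the related CCK2 receptor, had 6 counts in each control pancreas library and 0 or 1 in OA-AP, and was not tested.

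With TMM scaling the IP3 receptor genes did not pass the test in either tissue. Itpr1 (chromosome 6, 108213096 to 108551109) had 6.86 and 5.78 CPM in the control pancreas and 3.46, 4.69 and 3.14 CPM in OA-AP, without overlap, from 58 to 82 counts per library. Its log2 fold change was -0.75 (standard error 0.26, adjusted p = 0.0584, edgeR's quasi-likelihood test). Itpr2 (chromosome 6, 146108299 to 146502223) had 19.0 and 21.7 CPM against 18.2, 18.4 and 14.2 CPM, again without overlap, with a log2 fold change of -0.27 (adjusted p = 0.250). Itpr3 (chromosome 17, 27057304 to 27122223), which together with Itpr2 forms the IP3 receptors of the acinar apical pole, had 19.7 and 22.0 CPM against 22.5, 25.8 and 23.1 CPM and a log2 fold change of 0.19 (adjusted p = 0.339). Scaled with library totals alone, the Itpr2 value turned to 0.46 and Itpr3 was called higher (0.90, adjusted p = 0.00173).

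Shares within the family do not depend on library scaling. Itpr3 took 56.9% and 57.9% of the length-scaled IP3 receptor counts in the control pancreas and 63.8%, 65.7% and 69.4% in OA-AP. The share of Itpr2 was 33.4% and 34.7% against 31.4%, 28.5% and 25.9%, and that of Itpr1 9.72% and 7.45% against 4.83%, 5.86% and 4.64%. All 3 shares were without overlap between the groups, Itpr3 higher and the others lower in OA-AP. Shares of a family add up to the whole, so a rise of one brings falls of others and they are not separate observations. With 2 against 3 samples the smallest exact two-sided permutation p is 0.1, and after adjustment over 8 shares the lowest was 0.267, so none passed.

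In adipose tissue Itpr1 was at 74.9, 56.9 and 68.5 CPM in controls and 70.1, 71.1 and 70.5 CPM in OA-AP. Its groups overlapped, as did those of Itpr2 (37.0 to 45.4 CPM against 32.6 to 49.1) and Itpr3 (22.9 to 32.0 CPM against 19.6 to 27.4). Their log2 fold changes were 0.08 (interval -0.14 to 0.30), -0.05 (-0.38 to 0.28) and -0.19 (-0.52 to 0.15). The Itpr1 value turned to -0.07 with library totals alone. The 3 genes had more even shares there than in the pancreas, with control means of 38.5% ± 1.47 (SD, n = 3) for Itpr1, 29.3% ± 3.47 for Itpr2 and 32.2% ± 3.61 for Itpr3. The genes most like Itpr3 over the 11 libraries were Slc37a1 (Pearson r 0.9956), Baiap2l1 (0.9951) and Plpp7 (0.9949), over points that again share the tissue difference.

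Atp2a2 encodes SERCA2, the main pump that returns calcium to the endoplasmic reticulum (chromosome 5, 122453513 to 122502225, minus strand). In adipose tissue it rose from 182, 195 and 193 CPM to 305, 277 and 323 CPM, without overlap, and its log2 fold change of 0.67 had a standard error of 0.10 (adjusted p = 0.00344, edgeR's quasi-likelihood test). This is a 1.59-fold rise, close to the threshold of 1.5, and with library totals alone the log2 value was 0.52 and the call was lost. In the pancreas it was at 91.1 and 93.9 CPM in controls and 105, 106 and 149 CPM in OA-AP. These groups did not overlap, OA-AP replicate 3 being the highest, and the log2 fold change of 0.38 (standard error 0.18) did not pass (adjusted p = 0.142), whereas with library totals alone it was called higher (1.07, adjusted p = 0.000339). Within the SERCA family Atp2a2 held 90.4% and 93.0% of the length-scaled counts in the control pancreas and 92.2% to 95.3% in OA-AP. In adipose tissue it held 69.4% to 76.0% in controls and 74.1% to 83.2% in OA-AP, the rest being almost all Atp2a3, the SERCA3 gene. Atp2a3 itself did not pass in either tissue (log2 fold change -0.19, adjusted p = 0.551 in the pancreas and 0.03, adjusted p = 0.918 in adipose tissue).

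**Figure D3:**
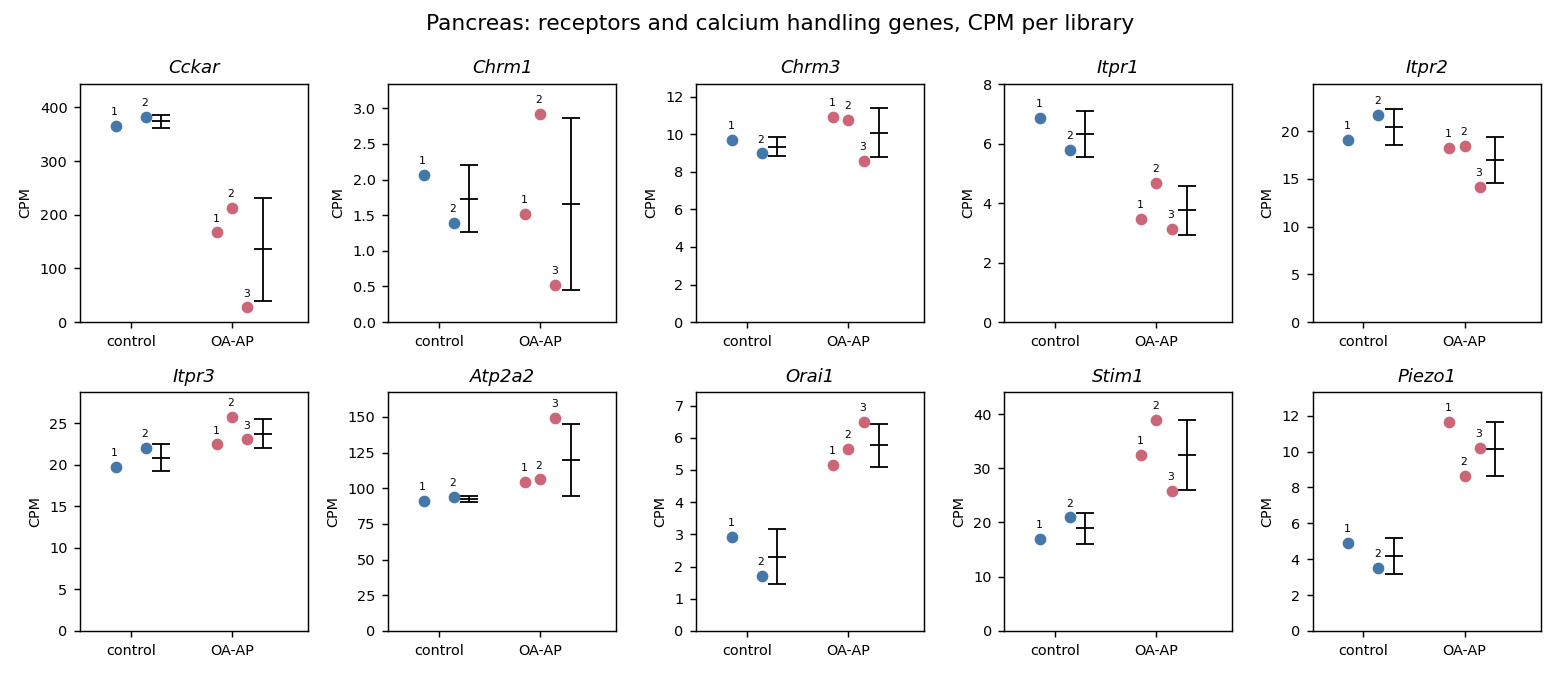
Normalized expression (CPM, linear axes from 0) of the 10 genes in each pancreas library, 2 control (blue) and 3 OA-AP (red), numbered by replicate, with mean and SD beside the points. Orai1, Stim1 and Piezo1, which passed the test, are higher in all 3 OA-AP libraries than in both controls. So are Itpr3 and Atp2a2, which did not pass. Cckar, Itpr1 and Itpr2, which did not pass either, are lower in all 3. The share of all genes that separate in this way is not given here. Cckar is lowest in OA-AP replicate 3, at 27.4 CPM.

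Orai1, the gene of the pore-forming subunit of the store-operated channel (chromosome 5, 123015074 to 123030456), rose in the pancreas. It was at 2.92 and 1.70 CPM in the controls and 5.14, 5.66 and 6.49 CPM in OA-AP, from 34 and 17 counts against 98, 99 and 124. The groups did not overlap, and the log2 fold change was 1.31 (standard error 0.31, adjusted p = 0.0137, edgeR's quasi-likelihood test). Without control replicate 2, the lower control, it was 0.98 and the call was lost, in a fit with a lone control. Such a fit cannot tell dependence on that library from the smaller group. In adipose tissue Orai1 was at 13.0, 13.8 and 13.2 CPM in controls and 17.5, 19.0 and 20.8 CPM in OA-AP. These groups did not overlap either, and the log2 fold change of 0.52 (standard error 0.11) had an adjusted p of 0.00954 but stayed under the fold change of 1.5, so it was not called.

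The other ORAI genes differed in direction. In the pancreas Orai2 was lower in OA-AP, with 47.5 and 53.4 CPM against 29.8, 39.9 and 24.0 CPM (log2 fold change -0.69, standard error 0.21, adjusted p = 0.0369 by edgeR's quasi-likelihood test), although with library totals alone its value was 0.03 and the call was lost. Orai3 was at 5.75 and 7.38 CPM against 8.98, 11.5 and 8.42 CPM, without overlap (log2 fold change 0.56, adjusted p = 0.0893), and with library totals alone it was called higher (1.28, adjusted p = 0.00188). Independently of scaling, Orai2 took 66.4% and 67.8% of the length-scaled ORAI counts in the control pancreas and 43.3%, 45.6% and 36.9% in OA-AP. The share of Orai1 was 10.8% and 5.69% in the controls and 19.8%, 17.1% and 26.4% in OA-AP, and that of Orai3 22.8% and 26.6% against 37.0%, 37.3% and 36.7%, both without overlap. In adipose tissue the Orai1 share was also without overlap, with 35.9%, 34.6% and 30.3% against 45.2%, 45.8% and 47.3%, while Orai3 rather than Orai2 made up most of the rest. Neither difference can pass the exact permutation test in a design of this size (p = 0.1 and adjusted p = 0.267 in each tissue). The genes most like Orai1 over the 11 libraries were Faf2 (Pearson r 0.9693), Irak4 (0.9614) and Ppie (0.9613). These points too share the difference between the tissues, and correlations within a tissue were not computed.

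Stim1, the gene of the store calcium sensor (chromosome 7, 102267806 to 102437319), rose in both tissues. In the pancreas it was at 16.9 and 20.9 CPM in the controls and 32.4, 38.8 and 25.9 CPM in OA-AP, without overlap, and its log2 fold change of 0.78 had a standard error of 0.20 (adjusted p = 0.0208, edgeR's quasi-likelihood test). The call was lost without OA-AP replicate 1 (adjusted p = 0.0656, same test). It was also lost without either control, in fits with a lone control that cannot tell dependence on a library from the smaller group. In adipose tissue it was at 107, 121 and 106 CPM in the controls and 220, 464 and 225 CPM in OA-AP. All OA-AP values were above the controls, and replicate 2 was far above replicates 1 and 3. The log2 fold change was 1.44 (standard error 0.30, adjusted p = 0.0111), and without OA-AP replicate 2 it was 1.00 (standard error 0.10, adjusted p = 0.000876). That library also had the highest endothelial marker share of the 6, 0.196% against 0.132% to 0.157%, and the lowest share of ductal markers, 0.00314%, and their part was not tested. Its 464 CPM came from 9660 counts, against 4245 and 4455 in the other OA-AP libraries.

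Stim2, the second store sensor gene, did not pass in either tissue, with log2 fold changes of 0.24 (interval -0.08 to 0.56) in the pancreas and 0.09 (-0.09 to 0.28) in adipose tissue. With library totals alone it was called higher in the pancreas (0.95, adjusted p = 0.00348) and was at -0.058 in adipose tissue. The share of Stim1 among length-scaled STIM counts was 45.9% and 50.5% in the control pancreas and 58.0%, 60.2% and 53.4% in OA-AP. In adipose tissue the share was 57.9%, 59.4% and 60.4% against 73.2%, 85.4% and 72.4%. Both were without overlap, and neither passed the exact permutation test after adjustment (adjusted p = 0.320 and 0.267).

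**Figure D4:**
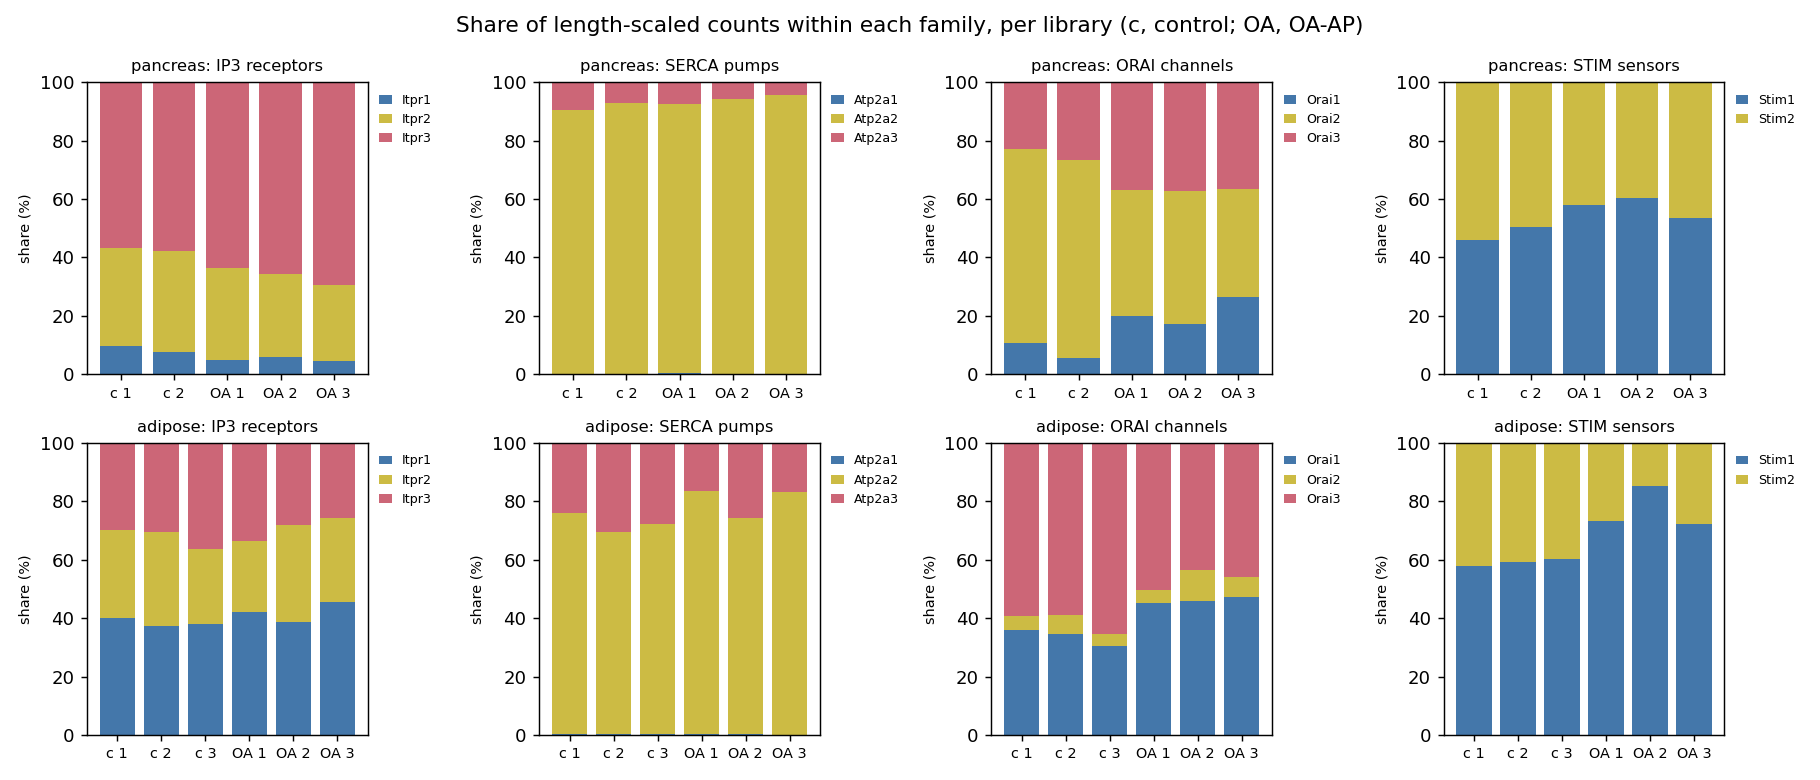
Share of length-scaled counts (%) that each paralog takes within the IP3 receptor, SERCA, ORAI and STIM families, a bar per library, pancreas above and adipose tissue below. Orai2 (yellow) takes 66.4% and 67.8% of the ORAI counts in the control pancreas and at most 45.6% in OA-AP, and the Stim1 share (blue) in adipose tissue is 57.9% to 60.4% in controls and 72.4% to 85.4% in OA-AP.

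Piezo1 (chromosome 8, 122481698 to 122551329, minus strand) rose in the pancreas from 4.89 and 3.49 CPM to 11.7, 8.64 and 10.2 CPM. The groups did not overlap, and the log2 fold change was 1.27 (standard error 0.24, adjusted p = 0.00555, edgeR's quasi-likelihood test). Without control replicate 2 it was 1.06 and the call was lost, again in a fit with a lone control. In adipose tissue, where Piezo1 was far more abundant, it was at 138, 139 and 151 CPM in controls and 159, 135 and 158 CPM in OA-AP. There the groups overlapped, and the log2 fold change of 0.08 had an interval of -0.13 to 0.29, with -0.07 under library totals alone. Of its exonic bases, 2441 (24.6%) are shared with Ctu2, a gene on the opposite strand, and the strand setting of the counting is not given in the sources used here. Ctu2 itself had at most 118 counts in a pancreas library and did not pass there (log2 fold change 0.18, adjusted p = 0.558), and it rose in adipose tissue (0.99, adjusted p = 0.00740). For the other 9 genes the exonic bases shared with another gene were 5.07% or less. Piezo2, named here after its values were seen, had a log2 fold change of -2.44 in the pancreas (adjusted p = 0.0249) from 2 to 23 counts per library, and the call was lost with library totals alone (-1.70, adjusted p = 0.0614). In adipose tissue Piezo2 fell by 1.03 on the log2 scale (adjusted p = 0.0200).

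Other cell type markers moved in the pancreas beside the rises of Orai1, Stim1 and Piezo1. Ductal markers summed to 369 and 385 CPM in the controls and to 565 to 1279 CPM in OA-AP, with 2 of the 7 tested higher and 2 lower. The adipocyte list summed to 46.9 and 61.7 CPM against 135 to 271 CPM, with 2 of the 3 tested higher, although Adipoq, Plin1 and Lep were at or near 0. Islet markers summed to 983 and 1205 CPM against 1355 to 1645 CPM, without overlap, with 2 of the 8 tested higher and 1 lower. Neutrophil markers summed to 1.80 and 2.79 CPM against 4.63 to 106 CPM, with 0 of the 7 tested called. Endothelial sums overlapped (89.2 and 111 CPM against 85.2 to 121 CPM), and macrophage sums lay at 42.3 and 84.3 CPM against 59.9 to 65.8 CPM. The part of these cells in the 3 rises was not tested.

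**Figure D5:**
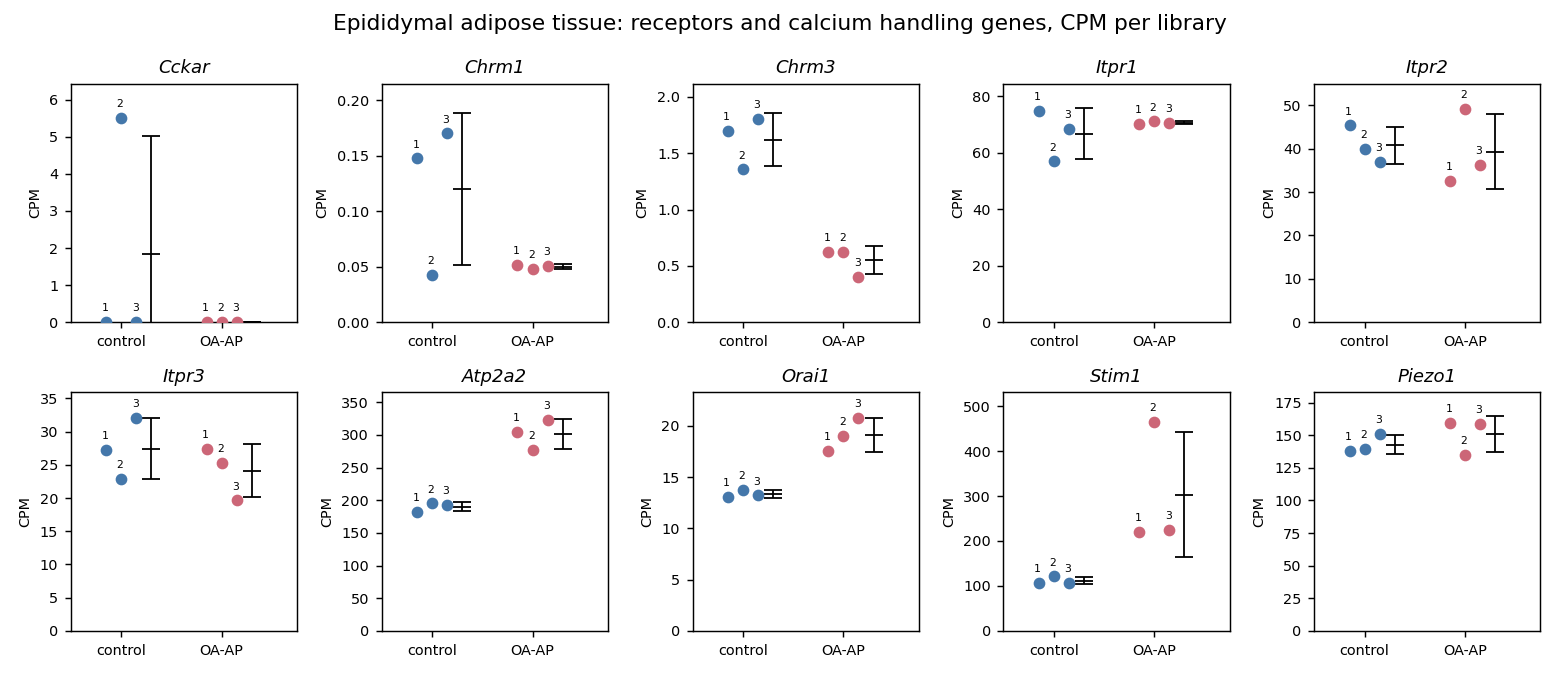
Normalized expression (CPM, linear axes from 0) of the 10 genes in each adipose library, 3 control (blue) and 3 OA-AP (red), numbered by replicate, with mean and SD beside the points and SD bars cut at 0. Atp2a2, Orai1 and Stim1 are higher and Chrm3 lower in every OA-AP library than in every control, and Cckar is above 0 in control replicate 2 alone.

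The test of tissue by condition asked whether the change in the pancreas differed from that in adipose tissue. It called 21.3% of 17046 genes (adjusted p under 0.05), 10.5% with the pancreas change higher and 10.8% with it lower, and called 3 of the 10 genes, 2 higher and 1 lower. For Chrm3 the pancreas change was higher by 1.67 in log2 units (standard error 0.31, adjusted p = 0.00286, edgeR's quasi-likelihood test), since it fell in adipose tissue and not in the pancreas. For Piezo1 it was higher by 1.20 (standard error 0.22, adjusted p = 0.00304). For Itpr1 the difference was -0.83 (standard error 0.24, adjusted p = 0.0314), which was lost when any of 9 of the 11 libraries was left out and was 0.02 with library totals alone. The changes of Orai1 and Stim1 were not shown to differ between the tissues (0.80, standard error 0.29, adjusted p = 0.0745, and -0.66, standard error 0.42, adjusted p = 0.304), nor was that of Atp2a2 (-0.28, adjusted p = 0.392). For Cckar the fitted difference was 6.22 with a standard error of 5.06 and turned to -1.47 without adipose control replicate 2, so it carries no direction.

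In the control mice, levels between genes are compared as CPM per kilobase of deposited gene length. In the pancreas the order was Cckar (101 ± 3.31, SD, n = 2), Atp2a2 (15.2 ± 0.325), Itpr3 (2.32 ± 0.181), Stim1 (1.82 ± 0.275), Chrm3 (1.49 ± 0.0817), Itpr2 (1.38 ± 0.128), Orai1 (1.00 ± 0.377), Piezo1 (0.422 ± 0.0997), Itpr1 (0.345 ± 0.0418) and Chrm1 (0.266 ± 0.0723). The receptor of cholecystokinin and the store pump thus stood clear of the rest, whereas the ranges of mean ± SD overlapped for the neighbours Stim1 and Chrm3, Chrm3 and Itpr2, Itpr2 and Orai1, Piezo1 and Itpr1, and Itpr1 and Chrm1. In adipose tissue the order was Atp2a2 (31.3 ± 1.14, SD, n = 3), Piezo1 (14.4 ± 0.704), Stim1 (10.7 ± 0.800), Orai1 (5.81 ± 0.169), Itpr1 (3.64 ± 0.496), Itpr3 (3.05 ± 0.509), Itpr2 (2.75 ± 0.289), Cckar (0.499 ± 0.864, from control replicate 2 alone), Chrm3 (0.259 ± 0.0374) and Chrm1 (0.0185 ± 0.0105). There the neighbours Itpr1 and Itpr3, Itpr3 and Itpr2, and Cckar and Chrm3 overlapped in this way.

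Between the control tissues, on a common TMM scale, 8 of the 10 genes differed, 6 higher in the pancreas and 2 lower, where 55.5% of 17046 genes were called, 26.0% as higher and 29.4% as lower. The receptors differed most. Chrm3 exceeded its adipose level by 4.49 in log2 units (standard error 0.21, adjusted p = 9.63e-09, edgeR's quasi-likelihood test), Chrm1 by 5.69 (standard error 0.71, from 1 to 5 counts in each adipose control) and Cckar by 9.71 (standard error 1.78), the last against adipose controls of which replicates 1 and 3 had 0 counts. Without adipose control replicate 2 the Cckar value was 17.3, a fitted number against libraries at 0 counts that is no bound. Piezo1 was 8.61-fold and Itpr1 2.68-fold higher in adipose tissue (log2 difference, pancreas minus adipose, -3.11 and -1.42). Itpr3, Itpr2 and Atp2a2 were higher in the pancreas by 1.58, 0.97 and 0.94, but these turned to -0.89, -1.50 and -1.53 with library totals alone. That scaling moved the median of all genes from -0.22 to -2.67 and gave 3 of the 10 genes higher and 7 lower. The share of all genes called with it is not given here, so the 3 and 7 are not read against a background. The order of Itpr3, Itpr2 and Atp2a2 between the tissues therefore depends on the scaling, whereas Cckar, Chrm1 and Chrm3 stayed higher in the pancreas and Piezo1 and Itpr1 lower. Orai1 (-0.54, adjusted p = 0.0627) and Stim1 (-0.59, adjusted p = 0.136) were not called.

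Around the 10 genes, 6 lists of other genes of the pathway were counted, and the leading genes named from them are those with the largest called rise or fall at a mean log2 CPM of 1 or more. In the pancreas 35 of the 103 tested (34.0%) were called, 10 higher and 25 lower, against 29.8% of all genes. With library totals alone 41 were higher and 6 lower, so the balance of directions depends on the scaling. The median of all tested pancreas genes was also higher with library totals. The share of all genes called with them is not given here, so the 41 and 6 are not read against a background. With TMM scaling the median log2 fold change of the 103 was -0.23, against 0.04 over all genes. Among genes of store release and their partners, 7 of 18 fell and none rose, with Bhlha15, a transcription factor of acinar secretory cells, falling most, from 287 to 42.8 CPM (log2 fold change -2.74, adjusted p = 0.00144, edgeR's quasi-likelihood test). Bhlha15 is also on the acinar list, of which 25 of the 44 tested in the pancreas were lower and 3 higher, so it is counted in both lists. Among other genes of store-operated and mechanical entry 1 of 13 rose and 4 fell. Cracr2a, a regulator of the ORAI channel, went down from a mean of 18.3 CPM (SD 3.31, n = 2) to 1.26 CPM (SD 0.250, n = 3; log2 fold change -3.85, adjusted p = 7.4e-05), and Esyt1, a tether between endoplasmic reticulum and plasma membrane, rose from 16.0 to 39.8 CPM (1.31, adjusted p = 0.00528). None of the 8 other genes of store refilling and extrusion was called.

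Among receptors and Gq coupling 5 of 24 rose and 4 fell in the pancreas, with F2rl1, the gene of the protease receptor PAR2, rising most within that abundance limit (log2 fold change 1.65, adjusted p = 0.0160, from at most 9 counts in a control) and Vipr2, a receptor gene for vasoactive intestinal peptide, falling most (-1.84, adjusted p = 0.00235). Mitochondrial calcium genes had 1 rise and 3 falls of 14. Slc8b1, the mitochondrial sodium-calcium exchanger, rose from 13.3 to 62.0 CPM (2.21, adjusted p = 0.000263), and Smdt1, a subunit of the mitochondrial uniporter, fell from 31.4 to 13.3 CPM (-1.23, adjusted p = 0.000624), a call that was lost with library totals alone (-0.52). Calcium effectors had 3 rises and 7 falls of 26, with Itpkc, an IP3 kinase gene, rising most (3.69, standard error 0.89, adjusted p = 0.0362) and Rcan2, a calcineurin regulator, falling most (-2.15, adjusted p = 0.000530). With library totals alone, more genes were called higher than lower in each of these lists, so their balance of directions depends on the scaling. The median of all tested pancreas genes was higher with that scaling as well.

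In adipose tissue 28 of the 114 other pathway genes tested (24.6%) were called, 13 higher and 15 lower, against 25.1% of all genes, with a median log2 fold change of 0.02. With library totals alone 8 were higher and 18 lower. The share of all genes called with that scaling is not given here, so the 8 and 18 are not read against a background. Store release had 4 rises and 3 falls of 20, led by Cd38, which makes cyclic ADP-ribose (log2 fold change 1.24, adjusted p = 0.00973, edgeR's quasi-likelihood test), and Ryr1, a ryanodine receptor gene (-1.43, adjusted p = 0.00341). Receptors and Gq coupling had 3 rises and 3 falls of 27, led by the G protein regulators Rgs16 (2.65, adjusted p = 0.00449) and Rgs2 (-1.79, adjusted p = 0.0157). Store refilling and extrusion had 2 falls of 9, the larger in the plasma membrane pump gene Atp2b4, from 382 to 204 CPM (-0.90, adjusted p = 0.00128). Entry genes had 3 falls of 15 and mitochondrial genes 1 fall of 15, in Slc8b1 (-0.79, adjusted p = 0.00593). Calcium effectors had 6 rises and 3 falls of 28, led within the abundance limit by the kinase gene Camkk2 (1.22, adjusted p = 0.000779) and the IP3 kinase gene Itpka (-1.58, adjusted p = 0.0138).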

How the data were processed

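Per the labels and the study's methods, RNA of the pancreas and of epididymal fat was sequenced as paired 150-base reads. The authors trimmed the reads with Trim Galore 0.6.6, checked them with fastp 0.20.1, mapped them to GRCm38 with STAR 2.7.4a and counted them with featureCounts 2.0.1. They deposited raw counts, whole numbers for each gene in each library, and for the pancreas gene lengths and coordinates, while the annotation release, strand and multimapper settings are not given in the sources used here. All 10 genes had the same start and end in GENCODE M21.

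After filterByExpr and TMM scaling, the tissues were tested separately with the robust quasi-likelihood test of edgeR 4.0.16 (R 4.3.3), with Benjamini-Hochberg adjustment. Genes were called at an adjusted p under 0.05 with a fold change of 1.5 or more, thresholds like those of the study. Tissue by condition and control pancreas against control adipose were tested in a fit of all 11 libraries on the 45260 genes listed in both tables. A standard error is the absolute log2 fold change over the root of its F statistic, and intervals are 2 standard errors. Log2 CPM for likeness used a prior count of 2. Family shares used the deposited lengths. Alternatives were DESeq2 1.42.0, its size factors, library totals, factors without acinar genes, no filter or 10 counts in every library, other fold changes, a 4-group fit, a replicate block and each library left out. The test was checked on simulated data in which a small set of genes changed in random directions. Such data lack the broad composition change of the pancreas libraries, so the check does not cover the choice of scaling.

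The 10 genes and the lists were chosen with earlier results of these data known. Named from each list were the called gene with the largest rise and with the largest fall (mean log2 CPM of 1 or more), and the paralogs. A further item under this rule is not reported here. Nothing states whether same-numbered libraries of the tissues came from the same mouse, and the main fit of all 11 libraries treated them as independent. The p-values weigh a group difference against the spread between these libraries, which edgeR estimated with information shared over genes. The reads carry no molecular identifiers, so floors of 3 counts cover counting error only.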

Additional observations from a re-analysis of the deposited data

Results flagged for a closer look

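The changes of 3 genes differed between the tissues by the test of the difference itself (edgeR's quasi-likelihood test of tissue by condition, Benjamini-Hochberg adjusted). The same test called 21.3% of the 17046 genes tested (adjusted p under 0.05). For Chrm3 the pancreas change exceeded the adipose change by 1.67 on the log2 scale (adjusted p = 0.00286), with 3 of 3 OA-AP adipose libraries below all controls and overlapping groups in the pancreas. For Piezo1 it exceeded it by 1.20 (adjusted p = 0.00304), with 3 of 3 OA-AP pancreas libraries above both controls and overlapping groups in adipose tissue. For Itpr1 the difference was -0.83 (adjusted p = 0.0314), with 3 of 3 OA-AP pancreas libraries below both controls. Neither tissue's own test called Itpr1, and the difference was lost in most fits that left out a library. Library composition differed between the tissues at the same time, and its part was not tested.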

How the results depend on the processing

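Over the alternatives, 585 of the single-gene values kept their direction and side of the threshold, 24 gained a call, 22 lost it and 20 changed sign. Adipose calls of the 10 genes stayed at 3 whichever library was left out. Scaling and single pancreas libraries mattered most. The share of all genes called under each alternative is not given here, so the counts below are not read against a background. With library totals alone the pancreas median moved to 0.75, the calls went from 3 to 6, all higher, with Chrm3, Itpr3 and Atp2a2 added, the tissue by condition calls went from 3 to 5, and the changed signs were those of pancreas Itpr2 (0.46) and Chrm1 (0.64), adipose Itpr1 (-0.071) and Piezo1 (-0.073), the tissue differences of Atp2a2 (0.55), Stim1 (0.20), Itpr2 (0.65) and Itpr1 (0.019), and control pancreas against adipose Atp2a2 (-1.53), Itpr3 (-0.89) and Itpr2 (-1.50).

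Leaving out a pancreas library gave 0 to 5 calls. There were 0 without control replicate 2, where the lone control was assumed to vary like the other group, and 5 without OA-AP replicate 3, with Cckar and Itpr1 (-0.69, adjusted p = 0.0398, edgeR) added. Itpr1 also passed with DESeq2's size factors (adjusted p = 0.0480, edgeR). Stim1 in the pancreas lost its call in the 4-group fit (adjusted p = 0.0858) and at a fold change of 2, as did Atp2a2 in adipose tissue at that threshold. The Itpr1 tissue difference had adjusted p from 0.0527 to 0.160 in the 9 fits that lost it, and that of Orai1 passed with DESeq2 (adjusted p = 0.0399), with 10 counts in every library (0.0372, edgeR) and without pancreas control replicate 1 (0.0220). With a library left out, log2 values that changed sign ranged from -0.76 to 0.30 for pancreas Chrm1 (turned without control replicate 1 or OA-AP replicate 3), from -0.016 to 0.18 for adipose Itpr1 (control replicate 2) and from -0.24 to 0.073 for adipose Itpr2 (control replicate 1, OA-AP replicate 1 or 3). The tissue difference ranged from -1.47 to 6.79 for Cckar (turned without adipose control replicate 2) and from -0.29 to 0.044 for Itpr2 (adipose OA-AP replicate 2). Other pathway genes called numbered 15 to 41 in the pancreas with a library left out, against 35, with 17 without control replicate 1 and 15 without control replicate 2, and 20 to 29 in adipose tissue, against 28, where a fold change of 2 gave 17. Differences in family share ranged with a library left out from -6.16 to 1.18 points for Chrm1 and -2.15 to 4.86 for Chrm3 in the pancreas, and from -0.54 to 1.84 for Chrm1 and -2.73 to 1.70 for Itpr2 in adipose tissue, and without length scaling Chrm3 in adipose tissue was at 2.49. The cause of these changes was not tested.

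Same-numbered libraries share a number in the labels and did not deviate together (correlations of -0.16 to 0.09), so the replicate block was an alternative alone. In the pancreas, replicate 3 exists in OA-AP alone, so the block fits that library exactly and in effect leaves it out. The Cckar value with the block is thus not a result separate from that without OA-AP replicate 3. With the block 4 of the 10 genes were called in the pancreas, Cckar joining (-0.99, adjusted p = 9.04e-05, edgeR), 3 in adipose tissue, 2 for tissue by condition, Itpr1 being lost (-0.86, adjusted p = 0.0524), and 8 between control tissues, with Stim1 gained and Cckar lost (adjusted p = 0.111), and pancreas Chrm1 turned to 0.30. The other pathway genes called with the block numbered 38 in the pancreas and 22 in adipose tissue. With 2 pancreas controls and as few as 17 counts for Orai1 and 10 for Chrm1 in a library, small changes of these genes were not detectable at this depth.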
